A study of Mus musculus with 6 samples.

Results

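The genes described here encode 9 transcription factors known from the thalamus and from GABAergic neurons of the midbrain and neighbouring diencephalon, namely Shox2, Tcf7l2, Gata2, Gata3, Tal1, Lef1, Gbx2, Sox14 and Barhl2. They were taken by gene symbol, and each of the 9 had 1 entry among the 23282 entries of the count tables. The genes were chosen because of their levels in these same libraries, both by labelled group and library by library, so their levels and fold changes are given as a description without a test. RNA came from the forebrain of male C57BL/6J mice aged 8–10 weeks, with 1 library for each of 6 biological replicates. The 3 replicates labelled WAS had 1 h of water avoidance stress, in which water surrounds the platform that a mouse stands on, and for the 3 labelled control the platform was kept dry on all sides for as long. Per the authors' methods, RNA was taken with no recovery time from one forebrain hemisphere, which excluded cerebellum and olfactory bulb. A figure caption of theirs instead places the examination at 1 h after the stress. Whether the midbrain stayed with the hemisphere is not given in the sources used here.

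Transcription factors of this kind are set up early in brain development and in part stay on in mature neurons, where they mark the region a neuron belongs to. TCF7L2 and LEF1 are DNA-binding partners of beta-catenin in Wnt signalling, and both are known from neurons of the thalamus, the relay station between the senses and the cortex. GATA2, GATA3 and TAL1 act together as selectors of the GABAergic fate in the embryonic midbrain, and the same factors are also used in blood and endothelial cells. In tissue RNA, a change in the share of cells of one type and a change in RNA per cell cannot be told apart.

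The QuantSeq 3′ method reads the end of polyadenylated transcripts, so that a long transcript does not give more reads than a short one. Total counts lay between 9248520 and 10502029 per library, and levels are given as CPM, the usual scaling of a gene's counts by the library total. Column headings of the count tables began with WC for WAS-labelled libraries and with WS for control-labelled ones, and the sources used here do not define them. Groups follow the labels. An exchange of labels would reverse the sign of all differences given here. WAS replicates 1 and 3 stood apart in regional markers. The summed level of 9 striatal genes was 183 CPM in WAS replicate 1 and 414 CPM in WAS replicate 3, against 2130 CPM in WAS replicate 2 and between 1064 and 1457 CPM in the libraries labelled control. The 8 cortical genes were present in all libraries at a summed 2379 to 2822 CPM in the group labelled WAS and 2950 to 3492 CPM in the group labelled control. The fold changes of the tested transcription factor genes and the counts of genes past the criteria in each list are therefore also given without them, and other genes are given by library. Drd2, a dopamine receptor gene and one of the striatal genes, was listed at 0 in 5 libraries and at 1 count in the other.

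The DNA just before the transcription start is shown for 4 of the genes, since the factors in this group can bind at each other's promoters. Each window covers the 250 bases before a RefSeq start site on GRCm38.p6, the mm10 build named in the submitters' processing notes, and is written 5′ to 3′ along the gene. The windows lie at chr3:66981772-66982021 on the minus strand for Shox2, at chr19:55741560-55741809 on the plus strand for Tcf7l2, at chr4:115056176-115056425 on the plus strand for Tal1 and at chr9:99876171-99876420 on the minus strand for Sox14. None of them overlaps an exon of GENCODE M21. Shox2, Tcf7l2 and Tal1 are shown for their large differences between libraries, and Sox14 because its window held 2 of the words searched. Capitals mark matches, on either strand, to the GATA words AGATAA or AGATAG and TGATAA or TGATAG, and to the TCF/LEF words CTTTGAA or CTTTGAT. The Tcf7l2 window held none.
Shox2: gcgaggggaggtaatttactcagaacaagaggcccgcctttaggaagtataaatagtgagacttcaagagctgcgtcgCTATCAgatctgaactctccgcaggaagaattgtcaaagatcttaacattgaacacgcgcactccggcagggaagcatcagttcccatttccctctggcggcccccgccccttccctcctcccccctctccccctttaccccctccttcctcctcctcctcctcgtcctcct
Tcf7l2: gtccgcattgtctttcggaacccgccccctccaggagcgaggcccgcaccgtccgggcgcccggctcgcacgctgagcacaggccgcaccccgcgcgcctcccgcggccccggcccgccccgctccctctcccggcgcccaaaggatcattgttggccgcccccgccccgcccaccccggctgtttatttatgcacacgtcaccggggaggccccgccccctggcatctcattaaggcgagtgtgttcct
Tal1: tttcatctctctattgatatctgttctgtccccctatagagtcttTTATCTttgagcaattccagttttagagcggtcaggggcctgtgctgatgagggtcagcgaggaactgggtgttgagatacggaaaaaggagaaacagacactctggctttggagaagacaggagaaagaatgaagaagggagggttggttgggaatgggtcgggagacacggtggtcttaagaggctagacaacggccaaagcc
Sox14: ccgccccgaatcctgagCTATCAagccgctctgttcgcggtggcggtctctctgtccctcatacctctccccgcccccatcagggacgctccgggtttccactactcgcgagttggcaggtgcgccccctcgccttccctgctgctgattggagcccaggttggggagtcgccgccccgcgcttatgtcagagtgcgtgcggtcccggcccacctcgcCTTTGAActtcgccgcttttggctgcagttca
Tcf7l2 has a further RefSeq start inside the gene, whose window held 2 GATA matches and is not shown. Of all 15 windows of the 9 genes, 5 held a GATA word, where 26.5% of the 32851 windows in the RefSeq table did. The windows with a GATA word belonged to Shox2, Tcf7l2, Tal1, Lef1 and Sox14. A TCF/LEF word occurred in 1 of the 15 windows, that of Sox14, against 7.48% of all windows. The E-box word CAGATG, which TAL1 binds with E proteins, and the homeodomain word TAATTA occurred in 0 of the 15 windows, against 14.4% and 4.84% of all windows. A match describes letters only, and the absence of a match says nothing on binding elsewhere.

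The mean level of each of the 9 genes was higher in the libraries labelled WAS (50.2% of all 15239 genes tested had a log2 fold change above 0), but the libraries of that group differed widely among themselves. WAS replicates 1 and 3 were the 2 highest libraries for 6 of the 9 genes, which held for 14.3% of all 15239 genes tested. WAS replicate 2 lay within the range of the control libraries for 3 genes, above it for 4 and below it for 2. For 4 of the 9 genes, namely Shox2, Tcf7l2, Gata2 and Barhl2, each library labelled WAS exceeded each one labelled control, as in 8.42% of all genes tested (12.2% were without overlap in either direction). The filter on low values was passed by 8 of the 9 genes, Barhl2 among them through its levels in the group labelled WAS. The fitted log2 fold change was at least 1 for Shox2, Tcf7l2, Gata3, Tal1, Barhl2 and Gbx2, as for 1.8% of all genes tested. Because the 9 genes were picked from these libraries, nothing is read from these counts.

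**Figure D1:**
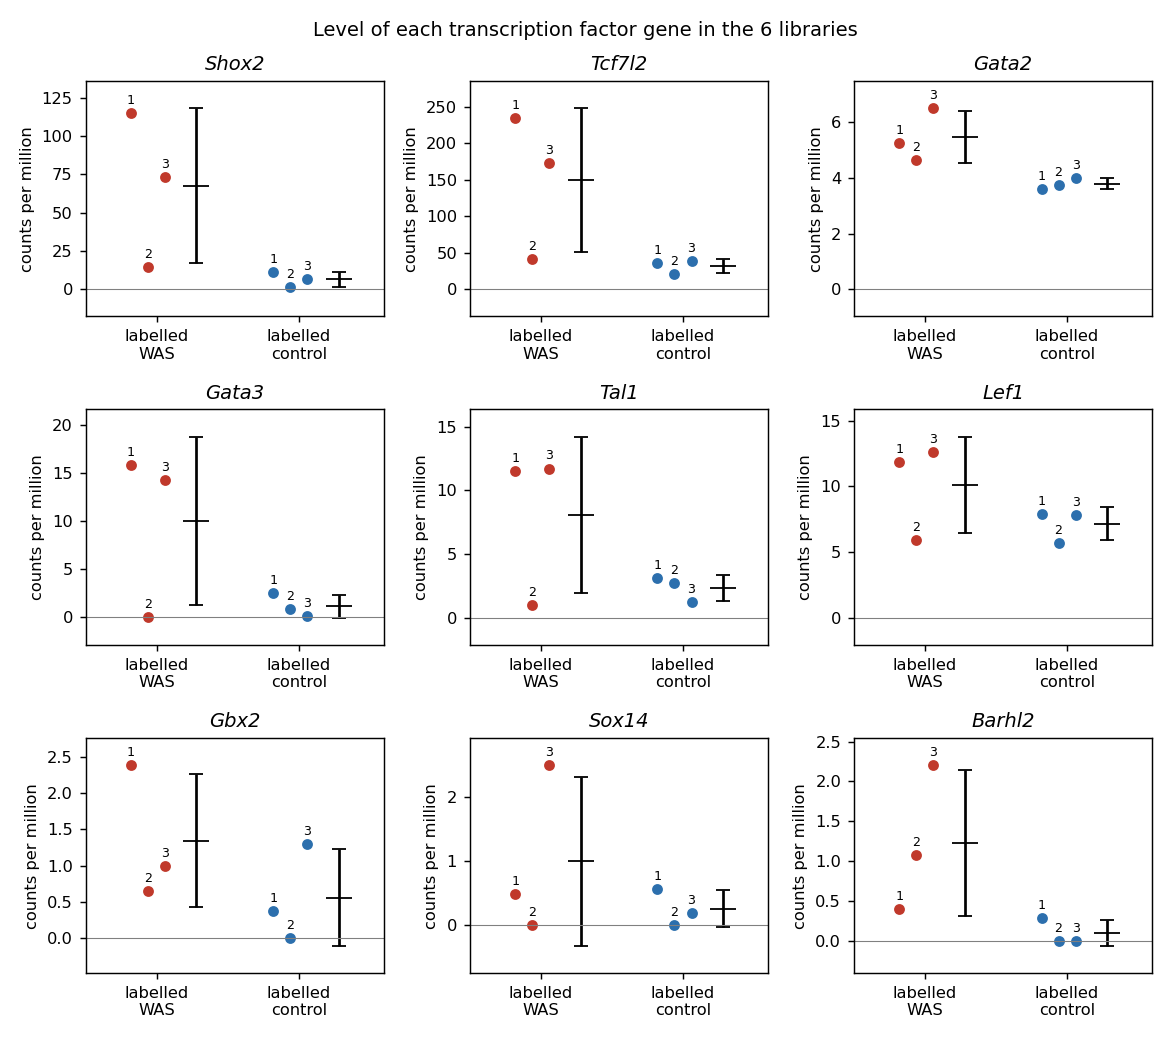
Level of each of the 9 transcription factor genes in CPM, with 1 point per library (red, labelled WAS, and blue, labelled control) and the replicate number above it. Black marks give the mean and the SD over 3 libraries. For Shox2, Tcf7l2, Gata3 and Tal1, WAS replicates 1 and 3 sit well above the other 4 libraries, whereas Gata2 shows little spread and Gbx2, Sox14 and Barhl2 stay under 3 CPM.

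Of the thalamic factors, Shox2 and Tcf7l2 differed most between libraries. Shox2 encodes a paired-type homeodomain protein that in the adult brain marks thalamic relay neurons. Its level was 115, 14.4 and 73.3 CPM in WAS replicates 1, 2 and 3 (1159, 133 and 732 counts), against 11.3, 1.64 and 6.51 CPM in control replicates 1, 2 and 3 (119, 17 and 65 counts). There was no overlap between the groups, but WAS replicate 2 stood near the controls. Its exact binomial 95% interval of 12.04 to 17.0 CPM met that of control replicate 1, at 9.39 to 13.6 CPM, whereas the remaining neighbours in the order of libraries had separate intervals. Such intervals cover counting error only. The mean was 67.6 ± 50.6 CPM (SD, n = 3) in the group labelled WAS against 6.49 ± 4.85 CPM (SD, n = 3) in the control-labelled one. The log2 fold change was thus 3.34, with a standard error of 0.67. Leaving out WAS replicate 1 lowered it to 2.72, and leaving out control replicate 1 raised it to 4.01. Without WAS replicates 1 and 3 the log2 fold change of Shox2 was 1.11, a comparison in which WAS replicate 2 stands alone and is assumed to vary like the control libraries. The Shox2 gene lies at chr3:66971727-66981771 inside Rsrc1, which is read from the opposite strand. Rsrc1 itself was at 74.3 to 91.7 CPM in the libraries labelled WAS and 74.6 to 77.5 CPM in those labelled control.

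Tcf7l2, at chr19:55741820-55933654 on the plus strand, is the TCF family gene that keeps its expression in adult thalamic neurons, and it followed the same order in the WAS group. It was measured at 234, 42.0 and 173 CPM in WAS replicates 1, 2 and 3 and at 36.6, 20.6 and 38.4 CPM in control replicates 1, 2 and 3. WAS replicate 2 exceeded control replicate 3 by less than the counting intervals, which overlapped, and WAS replicates 1 and 3 were separate from each other and from the rest. The group means were 149.8 ± 98.2 CPM (SD, n = 3) and 31.9 ± 9.78 CPM (SD, n = 3), which on the log2 scale differed by 2.20 (standard error 0.47). This value was 0.36 when WAS replicates 1 and 3 were both left out. TCF7L2 is also made by cells of the oligodendrocyte lineage. The 8 genes listed for that lineage summed to 5008, 6084 and 7044 CPM in WAS replicates 1, 2 and 3 and to 5273 to 6235 CPM in the control libraries, so that WAS replicate 1, which had the highest Tcf7l2, had the lowest sum of these genes.

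Lef1, the other TCF/LEF factor of the group (chr3:131110471-131224356, plus strand), showed a smaller difference. Its levels were 11.8, 5.95 and 12.6 CPM in WAS replicates 1, 2 and 3 against 7.90, 5.68 and 7.82 CPM in control replicates 1, 2 and 3. The groups overlapped, with WAS replicate 2 between control replicates 2 and 3, and no library differed from its neighbour in the order by more than the counting intervals. The log2 fold change was 0.47 (standard error 0.28), and it was -0.30 without WAS replicates 1 and 3. LEF1 is known from brain endothelium as well. The 8 endothelial genes summed to 155 to 169 CPM in the libraries labelled WAS and to 152 to 173 CPM in those labelled control.

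Gbx2, a homeodomain factor that is needed for the development of thalamic neurons (chr1:89927956-89931179, minus strand), was near the limit of detection. WAS replicates 1, 2 and 3 held 24, 6 and 10 reads of it, compared with 4, 0 and 13 in control replicates 1, 2 and 3, which is 2.38, 0.649 and 1.00 CPM against 0.381, 0 and 1.30 CPM. The groups overlapped, since control replicate 3 exceeded WAS replicates 2 and 3. The log2 fold change of Gbx2 was 1.22 (standard error 0.86). It depended on single libraries, with 0.52 without WAS replicate 1, 0.65 without control replicate 2 and 2.72 without control replicate 3. Without WAS replicates 1 and 3 it was 0.18.

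Gata3 and Tal1, selectors of GABAergic identity in the midbrain, varied together from library to library. Gata3 was measured at 15.9, 0 and 14.3 CPM in WAS replicates 1, 2 and 3 (160, 0 and 143 counts), compared with 2.48, 0.867 and 0.100 CPM in control replicates 1, 2 and 3 (26, 9 and 1 counts). The group labelled WAS thus held both the highest library and the one library with no Gata3 read, for which 3 counts would be 0.324 CPM. The means were 10.1 ± 8.76 CPM (SD, n = 3) and 1.15 ± 1.21 CPM (SD, n = 3), and the log2 fold change 3.08 (standard error 1.05), which was 4.29 without control replicate 1. Gata3 lies at chr2:9857078-9890034 on the minus strand and is crossed by non-coding genes on both strands. As the use of strand in the authors' counting is not stated, reads of these genes cannot be told apart from those of Gata3. Other genes also overlap Tcf7l2 (Ppnr), Lef1 (Gm42449 and Gm43352) and Gbx2 (D130058E05Rik), and none of these symbols has an entry of its own. Whether their reads entered the counts was not tested. The ends of Gata3 transcripts also share stretches of 50 bases with 9230102O04Rik and Gm13256, so the counts of Gata3 are uncertain to that extent. 9230102O04Rik had at most 8 counts and 4930412O13Rik, on the other strand, at most 13 counts in any library, and both had 0 counts in WAS replicate 2.

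Tal1, a basic helix-loop-helix factor that works in one complex with GATA proteins (chr4:115056426-115071755, plus strand), was measured at 11.5, 0.973 and 11.7 CPM in WAS replicates 1, 2 and 3 and at 3.14, 2.70 and 1.20 CPM in control replicates 1, 2 and 3. WAS replicate 2 was the lowest library of all, although its counting interval overlapped that of control replicate 3. The intervals of WAS replicates 1 and 3 overlapped each other and were separate from those of the other libraries. The means were 8.07 ± 6.15 CPM (SD, n = 3) against 2.35 ± 1.02 CPM (SD, n = 3), with 1.74 as the log2 fold change (standard error 0.66). Without WAS replicates 1 and 3, the direction of Tal1 turned around to -1.30. That of Gata3 did too, with a fitted value that has no lower limit because WAS replicate 2 is at 0. Across the 6 libraries, Pearson's r between Gata3 and Tal1 on the log2(CPM + 1) scale was 0.993, the highest of the 36 pairs of the 9 genes. These points share WAS replicates 1 and 3 as their high end.

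Gata2, the partner of Gata3 in the midbrain (chr6:88193891-88207032, plus strand), varied far less. Its levels were 5.26, 4.65 and 6.51 CPM in WAS replicates 1, 2 and 3 and 3.62, 3.76 and 4.01 CPM in control replicates 1, 2 and 3. All 3 libraries labelled WAS lay above the 3 labelled control, and no neighbouring pair in this order differed beyond the counting intervals. The means were 5.47 ± 0.948 CPM (SD, n = 3) and 3.79 ± 0.198 CPM (SD, n = 3), and the log2 fold change 0.49 (standard error 0.25), which was 0.25 without WAS replicates 1 and 3. The highest library exceeded the lowest by 1.40 times within the group labelled WAS, compared with 12.04 times for Tal1. The pair of GATA genes also differed in WAS replicate 2, where Gata2 had 43 counts and Gata3 had 0.

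As Gata2, Gata3 and Tal1 are also genes of blood-forming cells, erythroid genes were examined beside them. The 5 erythroid genes, which include the haemoglobin genes, summed to 1694, 1308 and 2208 CPM in WAS replicates 1, 2 and 3 and to 1192 to 1567 CPM in the control libraries. WAS replicates 1 and 3 were thus the highest in this sum too, by a smaller factor than for Gata3 or Tal1. Gata1, the GATA factor of red cell precursors, had 0 counts in all 6 libraries.

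Sox14 and Barhl2 had few reads. Sox14, a SoxB2 factor of GABAergic neurons in the rostral thalamus and pretectum (chr9:99874106-99876170, minus strand), had 5, 0 and 25 counts in WAS replicates 1, 2 and 3 and 6, 0 and 2 counts in control replicates 1, 2 and 3. It was the 1 gene of the 9 that did not pass the filter on low values. Its mean of 1.00 ± 1.33 CPM (SD, n = 3) in the group labelled WAS rested on WAS replicate 3, at 2.504 CPM, and the mean of the group labelled control was 0.257 ± 0.290 CPM (SD, n = 3). Barhl2, a homeodomain factor of diencephalic and midbrain neurons (chr5:106452523-106458166, minus strand), had 4, 10 and 22 counts against 3, 0 and 0 counts. In total 36 counts stood against 3, a ratio of 12.6 scaled to the totals with an exact 95% interval of 3.99 to 64.2 for counting error. All 3 control counts lay in control replicate 1, without which the fitted log2 fold change of Barhl2 went from 3.47 to 6.60, a value that is no bound because the controls are then at 0. With WAS replicate 3 left out it was 2.73, and with WAS replicates 1 and 3 left out 3.29. Barhl2 was the exception among the 9 genes in having WAS replicate 2 above WAS replicate 1, with overlapping intervals.

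The pattern over libraries was also described without the groups. Each gene's log2(CPM + 1) was expressed in SDs from its mean over the 6 libraries, and these values were averaged over the 8 genes that passed the filter. The mean profile was 1.02 in WAS replicate 1, 1.16 in WAS replicate 3, -0.37 in WAS replicate 2 and between -0.93 and -0.38 in the control libraries. Pairwise r between the 9 genes ran from 0.193 for Gbx2 and Barhl2 to the value of Gata3 and Tal1, with Shox2 and Tcf7l2 at 0.976. Among 1839 other genes whose highest library was at least 2 times the lowest, 130 had an r of at least 0.9 with the mean profile. The 10 highest, all with r between 0.983 and 0.993 over 6 libraries, were Glra1, Klhl1, Uncx, Kcng2, Tanc1, Cpne7, Mab21l1, Tnnt1, Dcn and Fibcd1. Glra1, a glycine receptor subunit gene, was at 55.5 and 44.1 CPM in WAS replicates 1 and 3 and between 1.73 and 4.28 CPM in the other 4 libraries. Uncx, a homeobox gene, was at 5.36 and 6.71 CPM in WAS replicates 1 and 3 and between 0.193 and 1.43 CPM in the other 4. Taken singly, Tcf7l2 was most like Tnnt1 (r = 0.998), Shox2 most like Rassf8 (0.992), Gata3 most like Mpzl2 (0.993) and Tal1 most like Gata3. Lef1 was most like Gdpd2 (0.993), Gbx2 most like Mxra8 (0.980) and Barhl2 most like Rph3al (0.976). Gata2 was most like Th (0.985), the gene of the rate-limiting enzyme of dopamine synthesis, which was at 7.45, 4.65 and 14.6 CPM in WAS replicates 1, 2 and 3 and between 1.24 and 3.41 CPM in the controls. All these r values rest on the same 6 libraries.

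**Figure D2:**
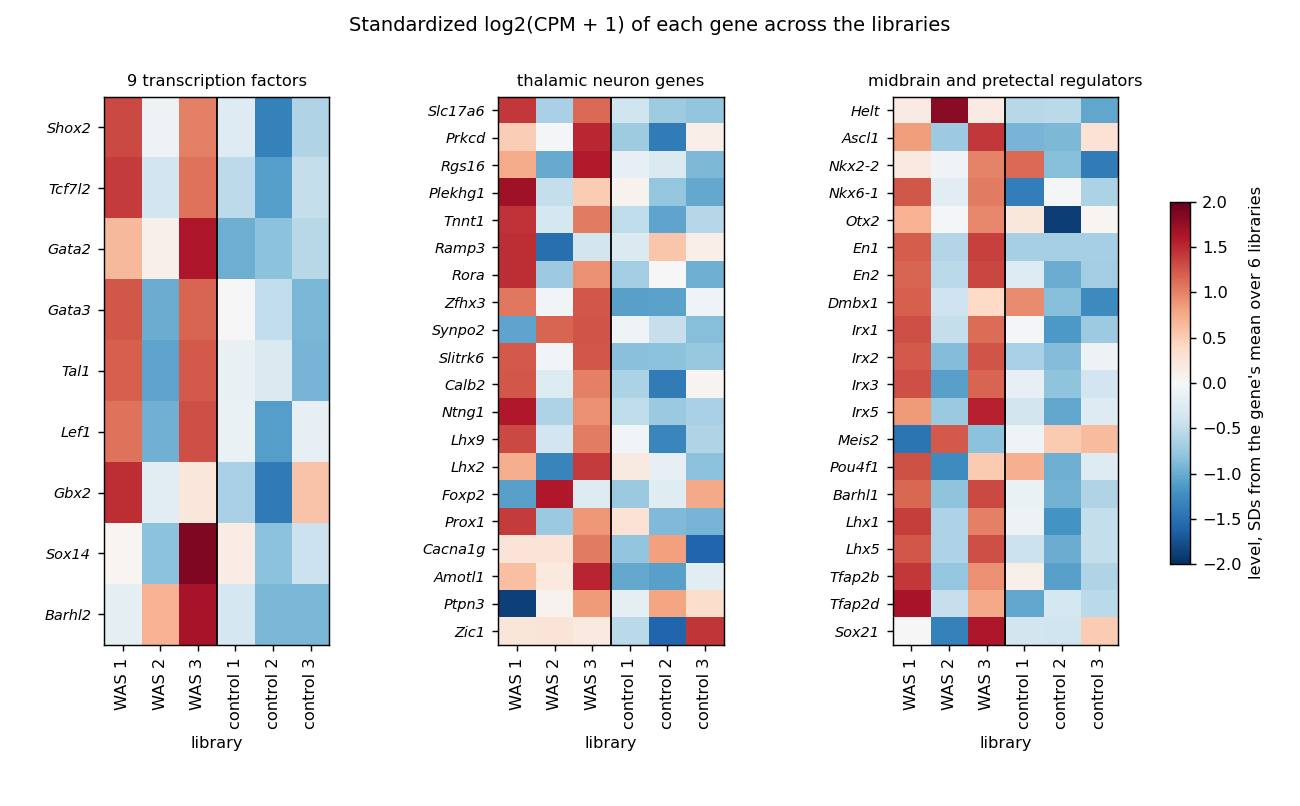
Level of each gene in each library, as log2(CPM + 1) in SDs from the gene's mean over the 6 libraries (red, higher, and blue, lower), for the 9 transcription factors and the genes tested of 2 lists. A vertical line divides the libraries labelled WAS from those labelled control. Most rows are red in WAS replicates 1 and 3 and not in WAS replicate 2, and Meis2 and Foxp2 are among the exceptions, with WAS replicate 2 as their highest library.

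Other genes of the same regions were read from lists that were drawn up by their known roles, with earlier results of these data known. The test was edgeR's quasi-likelihood test on all 15239 genes, and a gene met the criteria when it changed by 1.5 times or more with p below 0.05 before adjustment. Of all genes tested 2.49% met them, 1.82% as higher and 0.676% as lower in the libraries labelled WAS. After Benjamini-Hochberg adjustment 0 genes passed 0.05, whereas 1104 (7.24%) had an unadjusted p under 0.05. DESeq2 gave 22 genes past the adjusted threshold and limma gave 0. The gene lists below therefore hold no call by edgeR after adjustment, and a list's count is to be read against the shares just given.

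Of 20 genes known from thalamic neurons, all tested, 9 met the criteria, all 9 higher in the libraries labelled WAS, and 18 had a log2 fold change above 0. The median log2 fold change of the thalamic list was 0.58, against 0.00088 over all genes tested. Slc17a6, the vesicular glutamate transporter of thalamic and other subcortical neurons, was at 169.9, 30.7 and 134 CPM in WAS replicates 1, 2 and 3 and at 38.3, 29.3 and 27.4 CPM in control replicates 1, 2 and 3, giving a log2 difference of 1.78 (standard error 0.44). Lhx9, a LIM homeodomain gene of the thalamus, was at 18.9, 2.16 and 13.3 CPM against 3.52, 0.193 and 1.503 CPM, and the log2 fold change was 2.68 (standard error 0.75). Tnnt1, a slow troponin gene with thalamic expression, was at 10.4, 3.89 and 8.41 CPM against 3.52, 2.505 and 3.41 CPM, and the log2 fold change was 1.23 (standard error 0.35). These genes repeated the order of Shox2 and Tcf7l2 in the WAS group, with replicate 1 first and replicate 2 last. The others past the criteria were Prkcd, Plekhg1, Zfhx3, Slitrk6, Calb2 and Ntng1, with log2 fold changes from 0.60 to 1.44. The most abundant genes of the list, Rora and Lhx2, which the cortex and hippocampus also express, had log2 fold changes of 0.12 and 0.08 (standard errors 0.09 and 0.12). With limma on quantile-normalized log2 counts, 3 of the 20 thalamic genes met the criteria, and DESeq2 gave 9. Without WAS replicates 1 and 3, 0 of the 20 genes met the criteria in the comparison of WAS replicate 2 with the controls.

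Of 28 regulators of the midbrain and pretectum, 20 were tested and 12 met the criteria, all higher in the libraries labelled WAS. The count was 6 with DESeq2, 2 with limma and 5 with edgeR's filterByExpr as the filter on low values. Among the 12, En1, En2 and Irx2 had at most 8 counts in any control library. They passed the filter on low values through the group labelled WAS, so their being tested and being called higher rest on the same levels. The list's median was 1.82, also with En1 at its lower limit. En1, a homeobox gene of the midbrain and anterior hindbrain, had 0 counts in each of the 3 libraries labelled control, and it was at 12.3, 0.108 and 15.7 CPM in WAS replicates 1, 2 and 3. With 3 counts over the control group as the floor, En1 was at least 99.0-fold higher in the group labelled WAS, a value that rests on WAS replicates 1 and 3, since WAS replicate 2 held 1 count. Irx3, an Iroquois homeobox gene, was at 13.6, 0.324 and 11.9 CPM against 2.38, 0.771 and 1.70 CPM, or 2.37 as log2 fold change (standard error 0.81). Tfap2b, an AP-2 factor, was at 19.1, 1.95 and 11.9 CPM against 5.43, 1.25 and 2.41 CPM, with 1.82 (standard error 0.66). In En1 and Irx3, as in Gata3 and Tal1, WAS replicate 2 was close to or below the control libraries. En2, Irx1, Irx2, Irx5, Barhl1, Lhx1, Lhx5 and Tfap2d also met the criteria, with log2 fold changes from 1.81 to 2.98. Helt, a regulator of GABAergic fate in the midbrain, met them with another order, at 0.695, 1.73 and 0.701 CPM against 0.381, 0.385 and 0.200 CPM.
Meis2, by far the most abundant of the list and also a gene of the striatum, was at 160.2, 413 and 201 CPM in WAS replicates 1, 2 and 3 and 261, 322 and 335 CPM in control replicates 1, 2 and 3, the reverse order within the WAS group. Sox21, the closest relative of Sox14, differed by 0.04 on the log2 scale (standard error 0.19). With WAS replicates 1 and 3 left out, 3 of the 20 genes met the criteria. Leaving out control replicate 2 lowered the count from 12 to 7.

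Partners and pathway genes of the 9 factors did not show this pattern in number. Of 22 genes of TCF/LEF and Wnt signalling, 21 were tested, with 10 above and 11 below a log2 fold change of 0, and the median was -0.01. One gene, Nkd2, an inhibitor and target of Wnt signalling, met the criteria, at 11.3, 3.24 and 7.21 CPM against 5.05, 2.12 and 3.81 CPM (log2 fold change 0.96, standard error 0.43), and it lost them when WAS replicate 1 or either of control replicates 2 and 3 was left out. Ctnnb1, the gene of beta-catenin, and Gsk3b were the most abundant, with log2 fold changes of 0.14 and 0.02 (standard errors 0.07 and 0.08). Of 22 partners and relatives of the GATA factors and TAL1, 18 were tested, 0 met the criteria by edgeR's test, 3 had an unadjusted p under 0.05, and DESeq2 and limma also gave 0. Their median log2 fold change was -0.04. Tcf4, an E protein gene, was at 0.01 (standard error 0.09) and Id2, an inhibitor of E proteins, at -0.19 (standard error 0.11). Without WAS replicate 2, 3 genes of this list met the criteria, and without WAS replicates 1 and 3, 1 did. For the TCF/LEF list the latter count was 0.

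**Figure D3:**
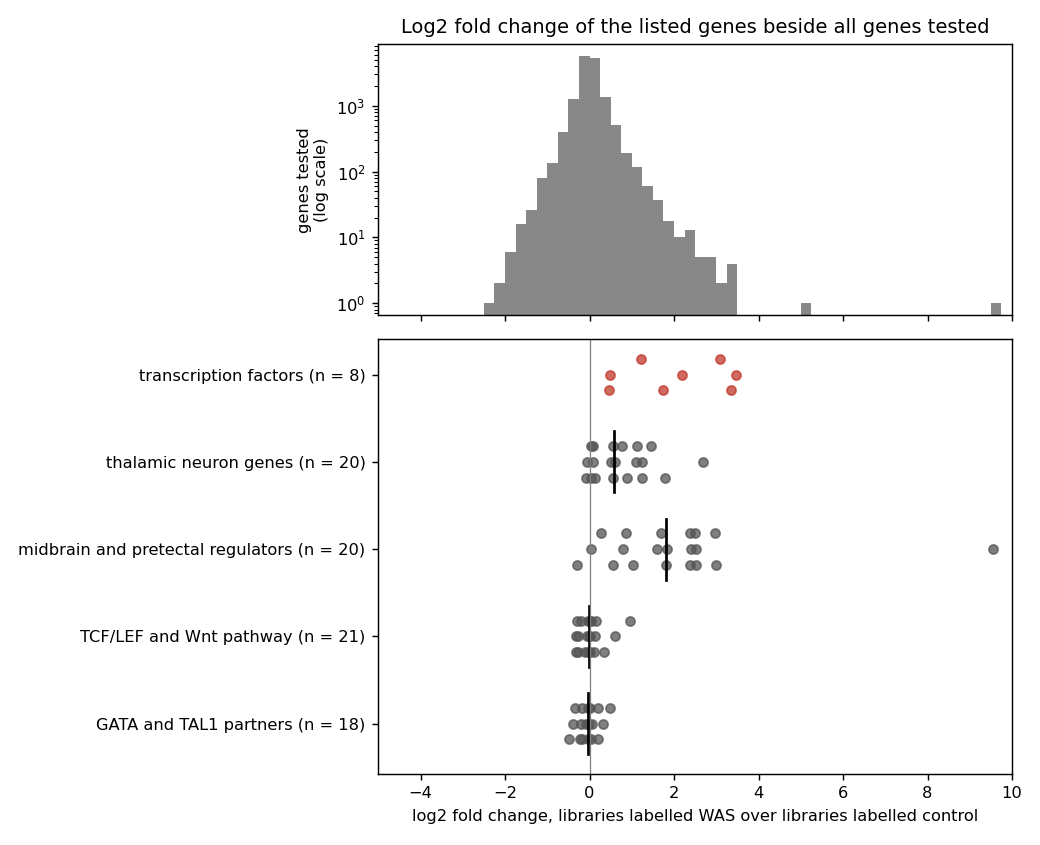
Log2 fold change between the libraries labelled WAS and those labelled control, as a histogram of all 15239 genes tested (upper panel, log scale of gene number) and as points for the genes of each list (lower panel, black bars are list medians). The 8 transcription factor genes that passed the filter lie between 0.47 and 3.47. The genes of the midbrain and pretectal list spread to the right, with En1 at a fitted value that is no bound, and the TCF/LEF and GATA partner lists are centred near 0.

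The regional make-up of the libraries was measured beside these genes. All 7 midbrain monoamine genes summed to 59.7, 29.5 and 119 CPM in WAS replicates 1, 2 and 3 and to 22.1 to 22.9 CPM in the control libraries, and for 6 of the 7 genes WAS replicates 1 and 3 were the 2 highest libraries. Slc6a3, the dopamine transporter gene, was at 10.6, 0 and 10.02 CPM against 0 to 0.301 CPM, so that WAS replicate 2 lacked it as it lacked Gata3. The striatal genes went the other way, and Adora2a, an adenosine receptor gene of striatal neurons, was at 0.497, 50.3 and 7.31 CPM in WAS replicates 1, 2 and 3 and between 26.6 and 34.9 CPM in the control libraries. Choroid plexus genes did not follow the same libraries, with 43.4, 1204 and 926 CPM in WAS replicates 1, 2 and 3 and 1246, 17.0 and 948 CPM in control replicates 1, 2 and 3. The 4 genes of GABAergic neurons in general summed to 574, 808 and 688 CPM against 628 to 706 CPM, and WAS replicates 1 and 3 did not stand above the controls in them. Of 7 hindbrain genes, 3 had 0 counts in all libraries and 5 had at most 3 counts in any. Cerebellar, hypothalamic, microglial and astrocyte sums overlapped between the groups. The monoamine and striatal markers moved with Shox2, Tcf7l2, Gata3 and Tal1, in opposite directions, and their part in the differences between the groups was not tested.

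**Figure D4:**
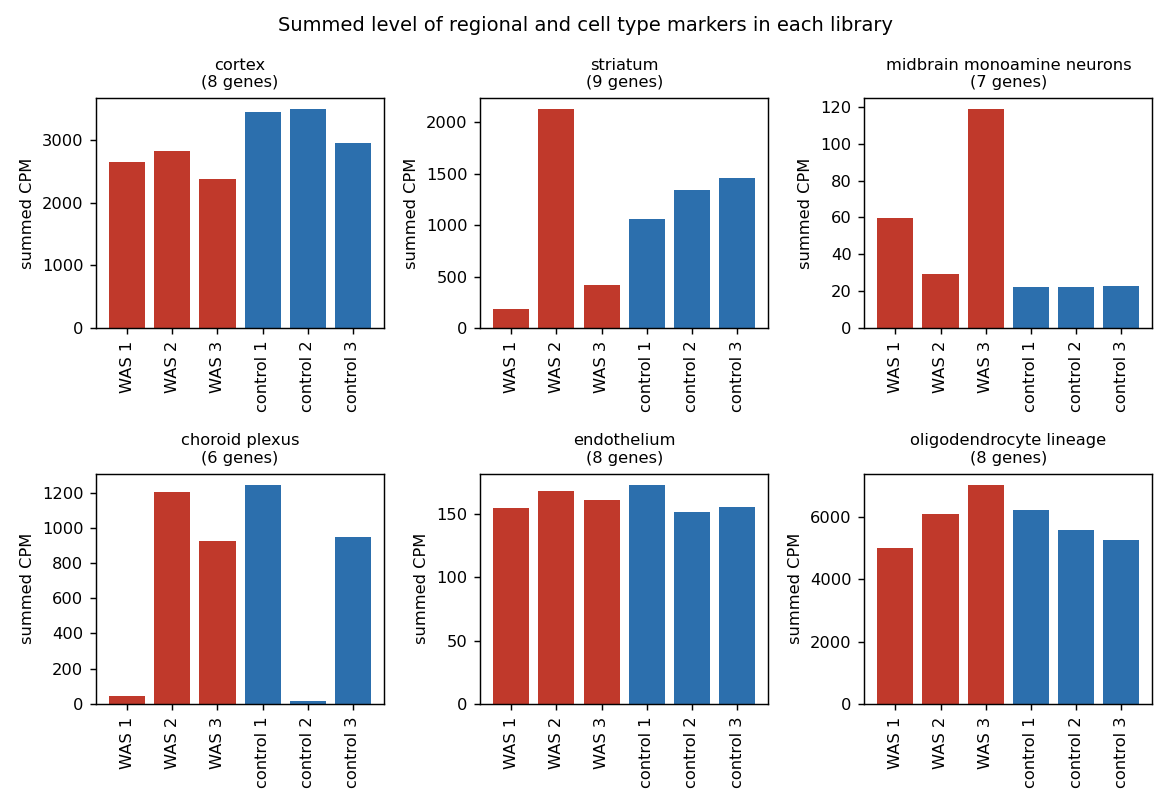
Summed CPM of the marker genes of 6 regions or cell types in each library (bars, red for libraries labelled WAS and blue for those labelled control). Striatal genes are lowest in WAS replicates 1 and 3, at 183 and 414 CPM, the same libraries in which monoamine neuron genes are highest, and endothelial genes differ little.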

How the data were processed

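The authors made the deposited counts from single-end QuantSeq 3′ libraries. Per the methods, reads were aligned with Bowtie2, and Bedtools coverage gave the counts, in which both uniquely and multiply aligned reads enter. The build mm10 is named in the submitters' processing notes. Versions, annotation and strand setting are not given in the sources used here. The files hold raw read counts with totals between 9248520 and 10502029, without the authors' quantile normalization. All 44 entries that repeat a symbol were kept. Counts were scaled by TMM and tested with edgeR 4.0.16 (R 4.3.3) on 15239 genes with a mean log2(quantile-normalized count + 1) of at least 2 over the 6 libraries. P-values were adjusted by Benjamini-Hochberg. Standard errors are the log2 fold change over the square root of F. The call rule was an unadjusted p under 0.05 with a fold change of at least 1.5. The test was tested on simulated data. Alternatives were total-count scaling, DESeq2 1.42.0, limma 3.58.1 on quantile-normalized log2 counts, 2 other filters on low values, leaving out each library, and a block for the replicate number. The fit without WAS replicates 1 and 3 was chosen after seeing the data.

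The 9 genes and the lists (thalamic neuron genes, midbrain and pretectal regulators, TCF/LEF and Wnt pathway, GATA and TAL1 partners, and markers of regions and cell types) were chosen with earlier results of these data known. Named were the 9 genes, from each tested list the genes past the call rule and the 2 most abundant, and the 10 genes most alike, by Pearson's r of log2(CPM + 1) over the 6 libraries, among genes with a mean of at least 2 CPM. Other genes named, such as Rsrc1, Slc6a3 and Adora2a, were chosen after their values were seen. Shared sequence was a stretch of 50 bases in the last 500 bases of a GENCODE M21 transcript. Start-site windows came from RefSeq. The replicates are biological ones per the labels. No molecular identifiers are stated for the reads, so intervals (exact binomial, Clopper-Pearson) cover counting error only.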

Additional observations from a re-analysis of the deposited data

How the results depend on the processing

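The number of genes past a fold change of 1.5 and an unadjusted p under 0.05 was 380, and it ran from 261 to 831 with each library left out, the highest being without WAS replicate 2. At an adjusted p under 0.05 the count of 0 became 22 with DESeq2, 49 with the replicate block, 1 without WAS replicates 1 and 3, and between 0 and 484 with each library left out. Total-count scaling gave 320 higher and 76 lower genes against 277 and 103, and limma on quantile-normalized log2 counts gave 220 and 193. The number of the 8 tested transcription factor genes with a log2 fold change above 0 fell to 5 without WAS replicates 1 and 3, where the values were -6.55 for Gata3, -1.30 for Tal1 and -0.30 for Lef1. The value of Gata3 is a fitted one for a library at 0 and is no bound. Otherwise all 8 genes kept a positive log2 fold change under each alternative in which they were tested. It ran from 2.72 to 4.01 for Shox2 and from 1.72 to 2.64 for Tcf7l2 with each library left out. Gata3 was at 1.79 (standard error 2.19) with limma and 3.11 (standard error 2.03) with DESeq2. The values of Tal1 were 1.13 (standard error 1.03) with limma and 1.75 (standard error 0.99) with DESeq2. For the thalamic list, 9 calls became 3 with limma and 0 without WAS replicates 1 and 3, and ran from 6 to 12 with each library left out. For the midbrain and pretectal list, 12 calls became 6 with DESeq2, 2 with limma, 5 with filterByExpr, where fewer genes were tested, and 3 without WAS replicates 1 and 3, and ran from 7 to 16 with each library left out. For the TCF/LEF list, 1 call became 2 with total-count scaling, 0 with limma and 0 without WAS replicates 1 and 3, and ran from 0 to 1. For the GATA and TAL1 partners, 0 calls became 1 with no low-value filter and 1 without WAS replicates 1 and 3, and ran from 0 to 3. Where not stated, the cause was not tested.

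For libraries with the same replicate number, the correlations of their deviations from the group means were 0.066, 0.084 and 0.087. Those of the other pairs ran from -0.0958 to 0.00925. The labels do not say whether libraries of the same number were handled together. Each library labelled WAS correlated best with the control library of its own number. With the replicate block, 417 genes met the criteria of p and fold, and the thalamic, midbrain, TCF/LEF and GATA lists had 9, 13, 1 and 0 calls. Genes under about 25 counts, such as Gbx2, Sox14 and Barhl2, are limited by depth.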

Other observations

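Some regulators of the midbrain list had too few reads to be tested but followed the same libraries. Foxa2, a factor of midbrain dopamine neurons, had 19, 0 and 9 counts in WAS replicates 1, 2 and 3 and 0 counts in each control library. Pou4f2, a POU factor, had 26, 0 and 14 counts against 2, 0 and 0. Pax7, a paired box gene of the dorsal midbrain, had 16, 0 and 19 counts against 12, 0 and 0, so that control replicate 1 held nearly as many as WAS replicate 1.

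Genes of serotonin neurons separated the pair of libraries in which the transcription factors were high. Slc6a4, the serotonin transporter gene, was at 1.39, 0 and 9.72 CPM in WAS replicates 1, 2 and 3 and at 0 in the control libraries. Tph2, the enzyme of serotonin synthesis in neurons, was at 0.695, 0.324 and 10.2 CPM in WAS replicates 1, 2 and 3 and between 0.674 and 1.24 CPM in the control libraries. Among the 9 transcription factor genes, Sox14 was likewise high in WAS replicate 3 alone, at 2.504 CPM against 0.497 CPM in WAS replicate 1.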
